A study of Mus musculus with 13 samples.

Results

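Removal of the ROCK inhibitor GSK429286A from a cocktail of 5 compounds was examined in damaged hepatocytes (dHeps) by comparing 2 RNA-seq libraries of cells kept without the inhibitor (5C-G) with 2 libraries of cells kept in the whole cocktail (5C). These 4 libraries were taken, by their column names, from the 13 libraries of the series, and all genes entered the comparison. The cells came from livers of mice injured with carbon tetrachloride (CCl4), carried the genotype label WT, and had been held for 16 days in serum-free Hepatocyte Maintenance Medium (Lonza). The 5C cells received GSK429286A (G) together with CID755673 (C), which inhibits protein kinase D, ETC-1002 (E), an activator of AMPK, Salidroside (S), a plant glycoside, and Forskolin (F), which raises cyclic AMP. The 5C-G cells received the same medium with C, E, F and S. DMSO cells, given only the solvent, and 5C-C, 5C-E, 5C-F and 5C-S cells, each lacking the compound named after the hyphen, are used below for reference. The labels give no age, the study's methods give one for the lineage-tracing strains used as injury models, and neither gives a marker sort for these cells. The methods describe hepatocyte isolation by collagenase perfusion for such cultures, and the study reports that an isolation of this kind enriched hepatocyte-derived cells in reporter mice, without a purity for these libraries.

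The ROCK kinases are switched on by the small GTPase RhoA and raise the phosphorylation of the regulatory light chain of myosin, which drives contraction of actomyosin. Through LIM kinases and cofilin they also favour filamentous over free actin. Free actin holds back MRTF, a partner of serum response factor (SRF), so that SRF target genes, among them smooth muscle actin and calponins, are known to follow the state of the actin cytoskeleton. In the liver this program is best known from activated hepatic stellate cells and portal myofibroblasts.

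The labels name the cells hepatocytes. Albumin, the main hepatocyte plasma protein, was abundant in all 4 libraries, at 9437 and 9425 FPKM (fragments per kilobase of gene length, scaled to the total count of the library, a level comparable between genes) in 5C and at 4136 and 4482 FPKM in 5C-G. Transcripts of other cells were also present. Vimentin (Vim, an intermediate filament of mesenchymal cells) stood at 573 and 675 FPKM in 5C and at 781 and 960 FPKM in 5C-G, and mesothelin (Msln) at 158 and 179 FPKM and at 408 and 456 FPKM. Of 14 markers of lymphocytes and granulocytes found, 10 had at most 3 counts in each of the 4 libraries, and their summed FPKM was 0.971 and 0.563 in 5C and 2.17 and 3.94 in 5C-G. Most of this sum was S100a8, a granulocyte gene, which was the member called, with 22 and 12 counts in 5C and 42 and 96 in 5C-G, and which was not called with 5C-G1 alone (log2 fold change 1.36, edgeR adjusted p = 0.265). In bulk RNA, fewer cells of a type and less RNA per cell cannot be told apart.

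Total counts were 33512657 and 30672924 in libraries 5C1 and 5C2 and 32119114 and 36478154 in libraries 5C-G1 and 5C-G2, within the range of all 13 libraries, 30195867 to 45491932. The numbers in the library names pair nothing between groups. The study's methods describe its replicates as separate biological ones. Neither the methods nor the labels say whether libraries of a group came from separate animals or separate cultures. P-values therefore measure only the spread between libraries of a group, pooled over all 13 libraries, which can differ from the spread of 5C-G. The libraries of 5C-G differed from each other more than those of 5C. Of 14262 genes with a mean of at least 1 CPM (a count scaled to the library total), 1027 (7.2%) were over 2-fold apart between 5C-G1 and 5C-G2, against 462 (3.24%) between the 5C libraries and 350 (2.45%) between the DMSO libraries. Among the other removals the share was 8.57% for the pair of 5C-C libraries, 6.77% for 5C-F and 2.94% for 5C-E. For this reason each 5C-G library is reported apart wherever the difference bears on a result.

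Without the ROCK inhibitor, genes of macrophages, contractile genes and lysosomal genes were higher, and genes of hepatocyte drug metabolism, bile acid transport and hepatocyte transcription factors were lower. Of 19884 genes tested with edgeR's quasi-likelihood test over all libraries, 2607 (13.1%) were called in 5C-G against 5C, where a call needs a Benjamini-Hochberg adjusted p under 0.05 and a change of more than 1 on the log2 scale. Higher genes numbered 1485 (7.47%) and lower genes 1122 (5.64%). Of the calls 57% were higher, against 43.4% when libraries were scaled by total counts alone, a scaling that moved the median log2 fold change of all genes by -0.130. Both 5C-G libraries lay above both 5C libraries for 6221 genes (31.3%) and below both for 6431 genes (32.3%), the background over all genes for statements on overlap. Of the called genes, 1484 of 1485 higher and all 1122 lower ones had no overlap, so a lack of overlap adds nothing to a call.

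The call counts depended on the library. With 5C-G1 as the only library of its group, 830 genes (4.21%) were called higher and 565 (2.86%) lower. With 5C-G2 alone, 1956 genes (9.86%) were called higher and 1989 (10%) lower. In these fits the lone library was assumed to vary like the other groups. A common set of 773 higher and 486 lower genes was called with each library alone, and 1 gene was called in opposite directions. Of the 1485 higher genes, 986 were more than 2-fold above the 5C mean in both libraries, 477 in 5C-G2 only and 22 in 5C-G1 only. Of the 1122 lower genes the numbers were 767, 324 and 31. Across genes, the changes of the 2 libraries from the 5C mean had a Pearson r of 0.64, a description in which the shared 5C mean enters both axes. The standard deviation of these changes was 0.82 for 5C-G1 and 1.19 for 5C-G2 on the log2 scale.

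**Figure D1:**
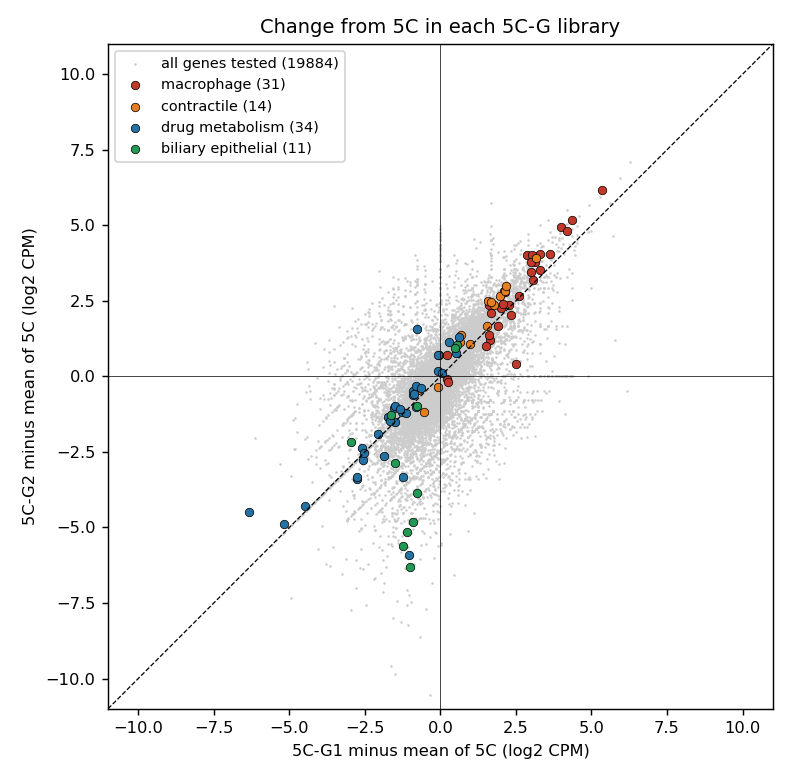
Difference from the 5C mean in log2 CPM for each of 19884 genes, in 5C-G1 (horizontal axis) and 5C-G2 (vertical axis), with 4 gene lists coloured and the dashed line marking equal values. Macrophage and contractile genes lie mostly at the upper right, drug metabolism genes at the lower left, and several biliary epithelial genes fall far lower in 5C-G2 than in 5C-G1.

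Among the well expressed protein-coding genes, 4 of the 10 largest rises were members of the macrophage list, Cbr2, C1qa, Marco and Cd5l. Ccl8, a chemokine gene on chr11:82006007-82007625 (GRCm39), stood at 0.933 and 1.78 FPKM in 5C and at 80.4 and 111 FPKM in 5C-G1 and 5C-G2 (log2 fold change 6.29 ± 0.46, SE, adjusted p = 1.71e-07, edgeR). Cbr2, carbonyl reductase 2, on chr11:120620312-120622940, stood at 3.75 and 3.09 FPKM in 5C and at 136 and 212 FPKM in 5C-G (5.83 ± 0.28, adjusted p = 3.65e-09, edgeR). Both genes were high in each 5C-G library, and the rule that named them required no overlap with 5C. The next in order were C1qa, Marco, Cd5l, Ifi27l2a, Ms4a7, Lyl1, Tnfaip8l2 and Pf4, with log2 fold changes from 4.81 down to 3.92. The largest falls were those of Cyp2c29, Cyp2b10, Cxcl13, Slco1b2, Cyp4a10, Cyp4a14, Fmod, Mmp7, Cps1 and Cyp2e1, with log2 fold changes from -5.03 to -2.67. Cxcl13, a B cell chemokine, fell from 25.5 and 30.7 FPKM to 1.95 and 3.21 FPKM, and Fmod, the collagen-binding proteoglycan fibromodulin, from 15.3 and 17.8 FPKM to 2.49 and 1.66 FPKM.

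Contractile genes were higher without the ROCK inhibitor. Of 14 genes of the contractile apparatus, 10 rose, none fell, and the median log2 fold change was 1.85, against -0.01 over all genes tested. The median was 1.56 in 5C-G1 and 2.02 in 5C-G2. With 5C-G1 alone 7 of the 14 were called higher, with 5C-G2 alone 11 higher and 1 lower.

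Acta2, smooth muscle alpha actin, on chr19:34217737-34232990, stood at 233 and 215 FPKM in 5C1 and 5C2 and at 746 and 991 FPKM in 5C-G1 and 5C-G2, with 255 and 300 FPKM in the DMSO libraries. Both 5C-G libraries lay above the 5C and the DMSO libraries, and the log2 fold change against 5C was 2.11 ± 0.21 (adjusted p = 3.61e-06, edgeR). Actg2, smooth muscle gamma actin, rose from 2.2 and 3.58 FPKM to 24.7 and 36.6 FPKM (3.56 ± 0.39, adjusted p = 9.12e-06, edgeR). Myl9, a regulatory light chain of myosin and so a member of the protein family on which ROCK acts, rose from 30.9 and 30 FPKM to 130 and 187 FPKM (2.53 ± 0.22, adjusted p = 7.56e-07, edgeR). These genes were highest in 5C-G2, and 5C-G1 still lay well above both 5C libraries. Actin genes share long stretches of sequence, and reads of Acta2 and Actg2 may have been divided between them.

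Cnn1 (calponin 1, which binds actin and restrains myosin) rose from 2.45 and 3.37 FPKM to 11 and 15.4 FPKM. Des, the muscle intermediate filament desmin, rose from 15.5 and 15.4 FPKM to 67.3 and 105 FPKM, and Tpm2 (tropomyosin 2) from 34.7 and 31.5 FPKM to 102 and 156 FPKM. Myh11, the heavy chain of smooth muscle myosin, rose from 1.27 and 1.47 FPKM to 3.88 and 3.74 FPKM. None of these 4 genes overlapped between 5C-G and 5C. Tagln (transgelin) rose by 2.09 ± 0.49 on the log2 scale over both libraries (adjusted p = 0.00502, edgeR) but had an adjusted p of 0.0945 (edgeR) with 5C-G1 alone. Tpm1 and Lmod1 rose by 1.02 and 1.06 and were called with 5C-G2 alone but not with 5C-G1 alone. The members that were not called were Smtn (0.91), Cald1 (-0.22), Synpo2 (-0.84) and Myocd (-0.64, at 0.0629 and 0.0682 FPKM in 5C-G).

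Against DMSO, both 5C-G libraries lay above both DMSO libraries for 10 of the 14 contractile genes and below them for 4, where the background over all genes was 30.1% above and 30.5% below. The summed FPKM of the 14 genes was 506 and 480 in 5C, 1347 and 1740 in 5C-G, 607 and 666 in DMSO, and 242 to 340 in the libraries of the other removals, 5C-S included. In 5C-G the summed FPKM of 6 mesothelial markers was 1045 and 1104, against 715 and 739 in 5C and 988 and 977 in DMSO, and that of 20 stellate cell and fibroblast markers 2529 and 2813, against 2204 and 2343 and 2722 and 2732. The part of these cells, or of the macrophages described below, in the contractile genes was not tested.

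**Figure D2:**
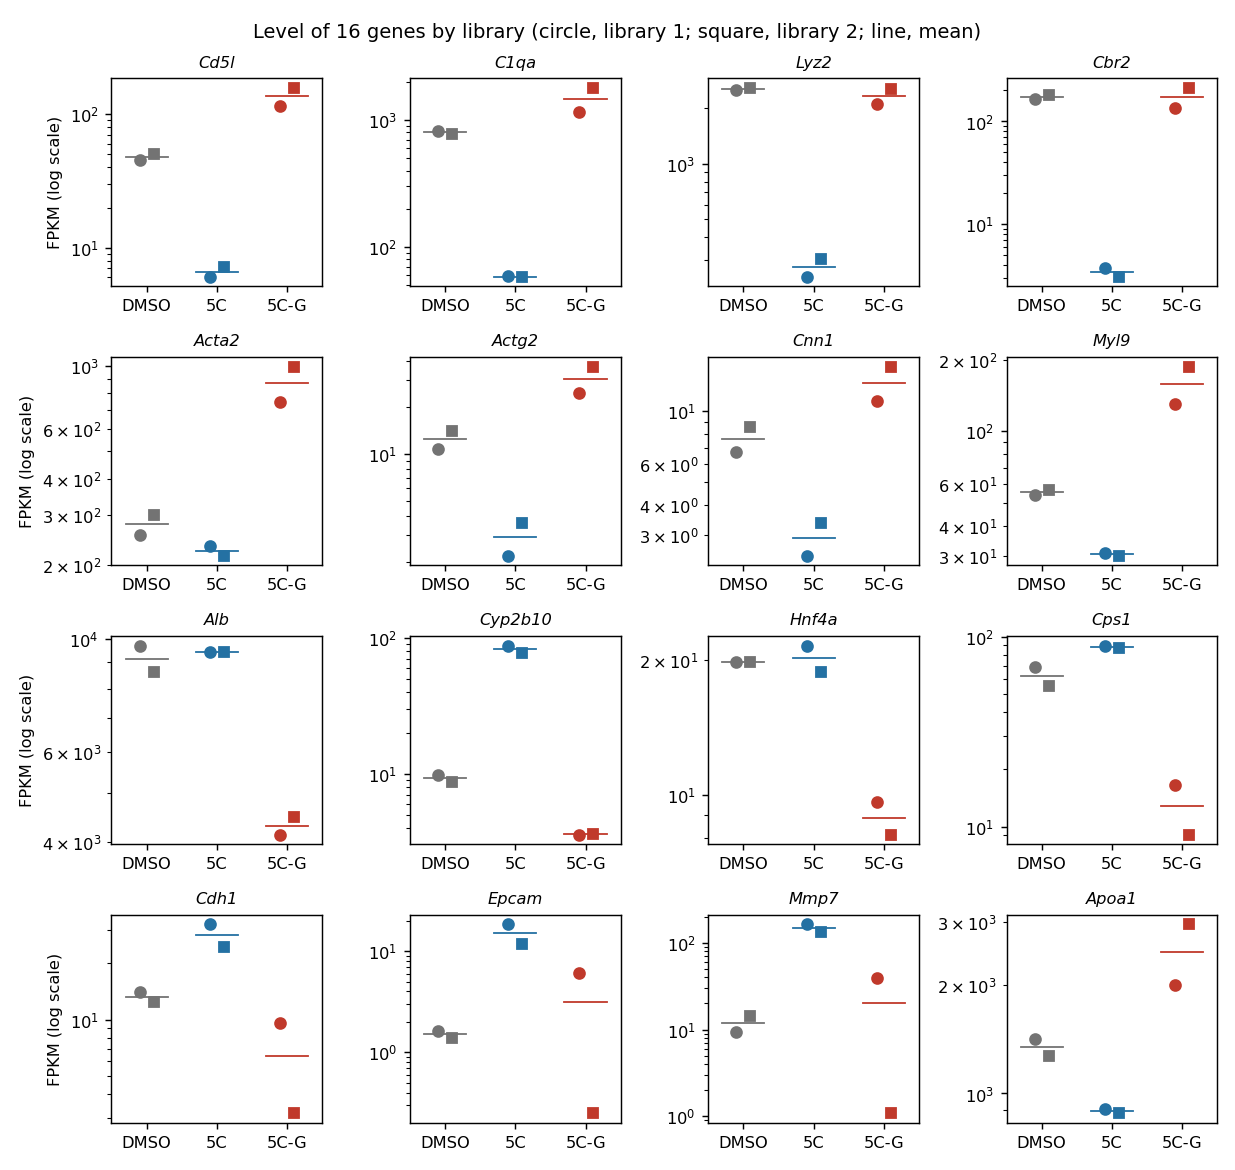
FPKM on a log scale of 16 genes in the DMSO, 5C and 5C-G libraries, with a circle for library 1, a square for library 2 and a line for their mean. Acta2, Actg2, Cnn1 and Myl9 are highest in 5C-G, the macrophage genes Cd5l, C1qa, Lyz2 and Cbr2 are lower in 5C than in the other groups shown, and Epcam and Mmp7 differ widely between the 5C-G libraries.

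Broader genes of the actin cytoskeleton and SRF pathway shifted less. Of 21 genes, 5 rose and none fell, with a median log2 fold change of 0.70, and 16 lay above both DMSO libraries in both 5C-G libraries. Cnn2 (calponin 2) rose from 77.7 and 91 FPKM to 180 and 263 FPKM, a log2 fold change of 1.55 ± 0.22 (adjusted p = 1.12e-04, edgeR). Fhl2, a LIM protein that partners SRF, rose from 15.8 and 18.1 FPKM to 35.5 and 34.9 FPKM (1.19 ± 0.22, adjusted p = 0.00109, edgeR). Both were called with each 5C-G library alone. Pdlim7, Tagln2 and Zyx (zyxin, of focal adhesions) rose by 1.39, 1.20 and 1.01, and the last 2 of these were not called with 5C-G1 alone. Srf itself stood at 11.7 and 11.9 FPKM in 5C and at 20.7 and 19 FPKM in 5C-G, without overlap, and its log2 difference of 0.88 ± 0.17 (adjusted p = 0.00124, edgeR) stayed under the fold required for a call. The cytoplasmic actins Actb and Actg1 had log2 differences of 0.67 and 0.81, also under that fold. Vinculin (Vcl), which anchors actin at adhesions, stood at 32.8 and 34.1 FPKM in 5C, at 26.1 FPKM in 5C-G1 and at 7.92 FPKM in 5C-G2. Of genes with a mean of at least 10 FPKM in 5C-G, Vcl was among the 8 that differed most toward 5C-G1.

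SRF binds a sequence known as the CArG box, and the promoters of the pathway genes are shown for where it occurs. Windows from 250 bases before to 50 after each start, from RefSeq (GRCm38.p6), were searched for CC, then 6 letters that are each A or T, then GG, a pattern that reads the same on both strands. It occurred in 535 of 32851 windows (1.63%), and in at least 1 window of 488 of 27025 genes (1.81%). Of the 14 contractile genes 10 had a window and 1 held the motif, Myl9. Of the 21 actin and SRF genes 20 had a window and 6 held it, namely Srf, Actg1, Vcl, Cnn2, Fhl2 and Filip1l. A match is a description of letters, not of binding, and no match says only that these letters are not in this window. Stretches of the windows, found unchanged in GRCm39 and written 5′ to 3′ on the strand of the gene with the motif in capitals, are given for a pair of called genes with the motif, for Myl9 and for Srf. In GENCODE, longer transcripts of Myl9 and Fhl2 include the motif in their 5′ untranslated exon, so only the motif with 10 bases on each side is given for these.
Myl9, chr2:156617213-156617242 (+), motif 161 bases before the RefSeq start: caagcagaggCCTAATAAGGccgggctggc
Fhl2, chr1:43235998-43236027 (-), motif 96 bases before the start: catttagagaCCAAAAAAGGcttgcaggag
Cnn2, chr10:79824184-79824409 (+), motif 56 bases before the start: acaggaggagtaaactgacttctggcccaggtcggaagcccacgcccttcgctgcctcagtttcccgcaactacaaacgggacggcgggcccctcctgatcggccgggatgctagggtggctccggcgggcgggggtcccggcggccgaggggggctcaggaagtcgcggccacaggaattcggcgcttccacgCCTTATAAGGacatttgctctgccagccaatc
Srf, chr17:46867120-46867338 (-), motifs 82 and 62 bases before the start: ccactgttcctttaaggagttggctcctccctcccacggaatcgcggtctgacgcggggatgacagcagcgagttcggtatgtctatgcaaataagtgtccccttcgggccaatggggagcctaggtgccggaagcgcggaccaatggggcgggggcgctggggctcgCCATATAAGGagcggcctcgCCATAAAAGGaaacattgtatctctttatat

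Genes of ROCK signalling themselves mostly stayed under the fold required. Of 20 genes, 4 rose and none fell, but with 5C-G2 alone 7 were called lower, Rock1 and Rock2 among them, and with 5C-G1 alone none. Rhoc, a small GTPase, rose from 66.7 and 58.4 FPKM to 176 and 193 FPKM (1.70 ± 0.23, adjusted p = 5.43e-05, edgeR), and Cfl1, cofilin, which severs actin filaments downstream of LIM kinase, from 100 and 115 FPKM to 243 and 293 FPKM (1.46 ± 0.19, adjusted p = 4.64e-05, edgeR). Limk1 and Rnd1 rose by 1.28 and 1.11 and were not called with 5C-G1 alone. The kinases targeted by the inhibitor, Rock1 and Rock2, had log2 differences of -0.92 and -0.72. Rock1 stood at 5.08 and 5.37 FPKM in 5C, at 3.61 FPKM in 5C-G1 and at 1.55 FPKM in 5C-G2, and Rock2 at 21.5 and 22.2 FPKM, then 16.3 and 8.32 FPKM. With a joint correction for GC content and gene length, called the correction for GC content below, their differences were -0.03 and 0.06. RhoA (Rhoa) was at 51.1 and 54.1 FPKM in 5C and at 52 and 43.3 FPKM in 5C-G, groups that overlapped.

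Targets of YAP and TEAD, which also respond to tension in the actin cytoskeleton, were called about as often as all genes, of which 7.47% were called higher and 5.64% lower. Of 25 genes, 1 rose (Gadd45a, 1.10) and 2 fell (Wwc1, -1.23, and Rbms3, which was not called with 5C-G1 alone), with a median of -0.16. With 5C-G2 alone 5 were called lower and the median was -0.52, and with 5C-G1 alone 1 was called lower and the median was -0.14. Ctgf stood at 259 and 234 FPKM in 5C and at 333 and 222 FPKM in 5C-G, with overlap. Cyr61 stood at 213 and 184 FPKM and at 346 and 239 FPKM, a log2 difference of 0.68 that stayed under the fold required. Among 17 integrin and adhesion genes 1 rose and 3 fell. Itga5, the fibronectin receptor subunit, rose from 30.1 and 27.3 FPKM to 58.4 and 58.5 FPKM (1.16 ± 0.19, adjusted p = 3.13e-04, edgeR), and the less abundant Itgb6, Itga2 and Itgb3 fell by 3.06, 2.25 and 1.08 on the log2 scale, Itgb3 without a call from 5C-G1 alone.

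Of the 37 lists, the macrophage list held the most called genes. Of its 31 genes 26 rose and none fell, with a median log2 fold change of 2.51, and the same number was called with 5C-G1 alone, with 5C-G2 alone and with the correction for GC content. C1qa, a chain of complement C1q made by resident macrophages, rose from 58.7 and 58.2 FPKM to 1160 and 1793 FPKM (4.81 ± 0.41, adjusted p = 6.11e-07, edgeR). Cd5l, a secreted protein of Kupffer cells (the resident macrophages of the liver), rose from 6.03 and 7.13 FPKM to 115 and 158 FPKM (4.53 ± 0.23, adjusted p = 4.49e-09, edgeR). Lyz2, the macrophage lysozyme, rose from 244 and 306 FPKM to 2107 and 2539 FPKM (3.22 ± 0.23, adjusted p = 1.71e-07, edgeR). None of these overlapped. Adgre1, which encodes F4/80, rose by 2.32, Csf1r, the receptor on which macrophages depend for survival, by 2.48, and Spi1, the myeloid transcription factor PU.1, by 3.45. The members that were not called were Mertk, Cd14, Cx3cr1, Timd4 and Clec4f, with log2 differences of 0.07, 0.49, 0.05, 1.98 and 3.39. The Kupffer cell markers Timd4 and Clec4f reached at most 0.286 FPKM in these 4 libraries.

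The summed FPKM of the 31 genes was 769 and 854 in 5C and 6296 and 8755 in 5C-G, against 6230 and 6325 in DMSO and 884 to 2597 in the other removals, 5C-S included. The macrophage level was thus low in 5C and close to or above that of DMSO in 5C-G. Gene by gene, 10 of the 31 lay above both DMSO libraries in both 5C-G libraries and 15 below. Their share of all counts was 0.14% and 0.155% in 5C and 0.978% and 1.27% in 5C-G. Ms4a4a, a membrane protein of macrophages, was at 10.3 and 15 FPKM in 5C, at 71.4 FPKM in 5C-G1 and at 8.54 FPKM in 5C-G2, so that its call rested on 5C-G1 (log2 fold change 1.72 over both libraries and -0.34 with 5C-G2 alone).

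**Figure D3:**
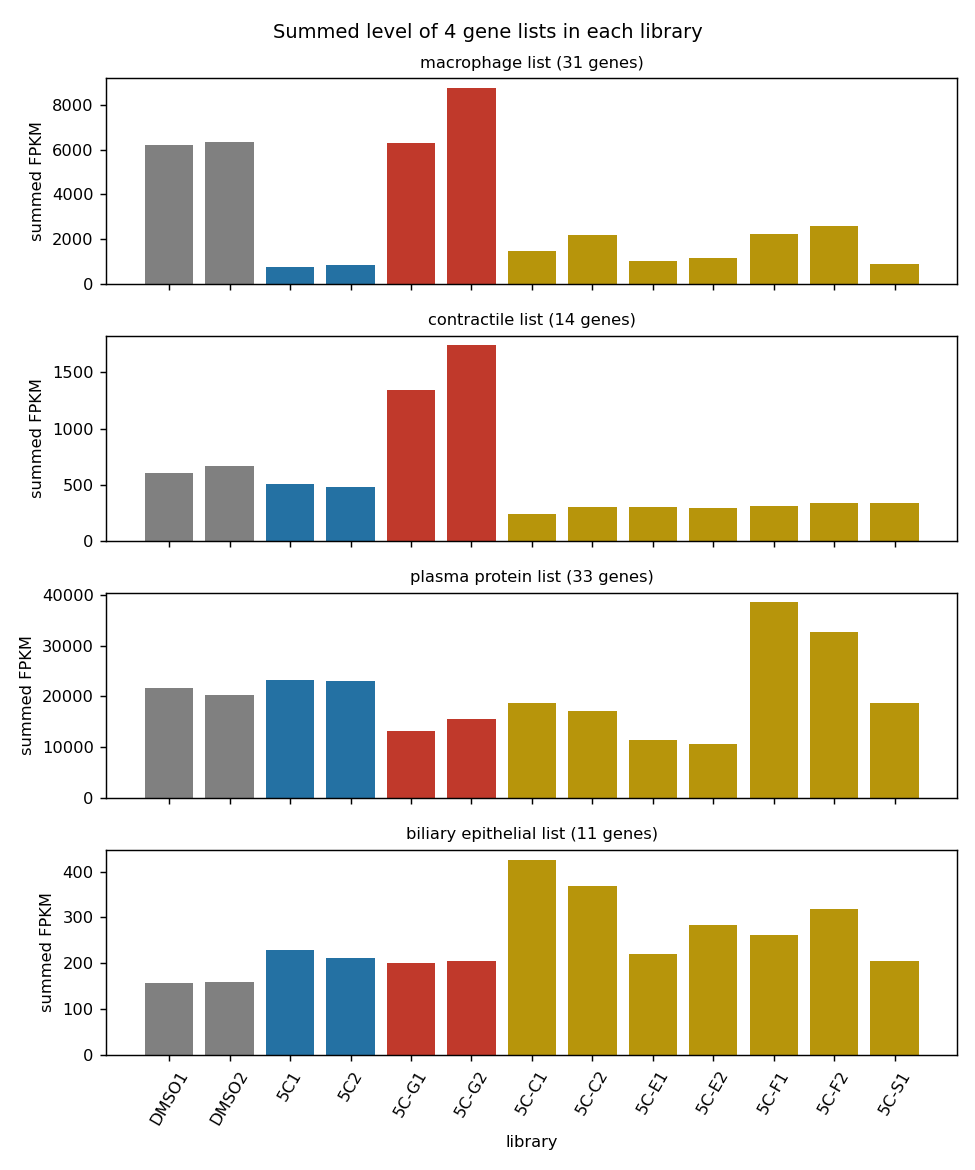
Summed FPKM of 4 gene lists in each of the 13 libraries, as bars from 0, with DMSO in grey, 5C in blue, 5C-G in red and the other removals in ochre. The macrophage sums of 5C-G, 6296 and 8755, are near or above those of DMSO, 6230 and 6325, and the contractile sum of 5C-G is above that of each other library.

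Genes of the phagocyte NADPH oxidase, which makes superoxide, moved with the macrophage genes. Of 7 genes 6 rose and 1 fell. Cyba, a membrane subunit, rose from 81.8 and 88.7 FPKM to 331 and 477 FPKM (2.40 ± 0.25, adjusted p = 4.37e-06, edgeR), and Cybb, its catalytic partner, from 3.75 and 4.9 FPKM to 14.9 and 15.6 FPKM (1.95 ± 0.25, adjusted p = 3.99e-05, edgeR). Of the cytosolic part, Ncf1, Rac2 and Ncf4 rose by 2.61, 2.94 and 3.21. Nox4, an oxidase outside the phagocyte complex, fell from 6.27 and 4.61 FPKM to 1.32 and 0.901 FPKM (-2.17 ± 0.26, adjusted p = 1.60e-05, edgeR). Lysosomal genes also rose, 11 of 17 with none lower and a median of 1.44. Ctsd, the protease cathepsin D, rose from 330 and 347 FPKM to 1153 and 1596 FPKM, Ctsk from 21.6 and 22.6 FPKM to 85.7 and 76.4 FPKM, and Ctsb from 199 and 218 FPKM to 671 and 793 FPKM. Lamp1 and Lamp2, lysosomal membrane proteins, had differences of 0.72 and -0.61 and were not called. Macrophages express these oxidase and cathepsin genes, and the part of the macrophage rise in them was not tested.

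Of 32 chemokine and cytokine genes 8 rose and 3 fell, where 7.47% of all genes were called higher and 5.64% lower. Ccl6 rose from 13.9 and 15.2 FPKM to 114 and 153 FPKM (3.35 ± 0.22, adjusted p = 6.96e-08, edgeR), and Ccl8, Ccl12, Ccl9, Ccl3, Ccl4, the receptor Ccr1 and Tgfb1 rose as well. Ccl3 and Ccl4 were not called with 5C-G1 alone. Tgfb1, the profibrotic cytokine, rose from 12.3 and 14.6 FPKM to 30.1 and 40 FPKM (1.52 ± 0.23, adjusted p = 1.83e-04, edgeR). The neutrophil chemokines Cxcl5 and Cxcl1 fell, by 4.05 and 1.41 on the log2 scale, as did Il1rn, an inhibitor of interleukin 1, by 1.42. Ccl2 was at 44.9 and 31.9 FPKM in 5C and at 47.9 and 29 FPKM in 5C-G, with overlap, and osteopontin (Spp1) at 1842 and 1517 FPKM and at 2286 and 1803 FPKM, also with overlap. Of 20 interferon-induced genes 5 rose and none fell. They were Irf7 (2.72), Isg15 (2.66), Oas1a (2.17), Bst2 (1.68) and Oasl1 (1.15, not called with 5C-G1 alone). Isg15 stood at 18.9 FPKM in 5C-G1 and 42.7 FPKM in 5C-G2, both above the 5.25 and 5.7 FPKM of 5C.

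Hepatocyte genes were lower without the ROCK inhibitor, to different degrees by function. Among 20 hepatocyte transcription factors 11 fell and 1 rose, with a median log2 fold change of -1.16 (-0.55 by limma on log2(FPKM + 1)). The median was -0.96 in 5C-G1 and -1.30 in 5C-G2, and 14 of the genes lay below both DMSO libraries in both 5C-G libraries. Hnf4a, a master regulator of the hepatocyte, stood at 21.5 and 18.8 FPKM in 5C and at 9.62 and 8.16 FPKM in 5C-G, with 19.8 FPKM in each DMSO library. Both 5C-G libraries were below the 5C and the DMSO libraries, and the log2 fold change was -1.05 ± 0.18 (adjusted p = 4.54e-04, edgeR). Prox1, Onecut2, Foxa1 and Nr5a2 fell by 2.28, 2.25, 1.94 and 1.85. Foxa2 stood at 6.54 and 5.27 FPKM in 5C and at 3.4 and 3.08 FPKM in 5C-G, a difference of -0.73 ± 0.28 that was not called (adjusted p = 0.0668, edgeR). Foxa3, Nr1h4 and Rxra were not called either. The exception was Cebpb, which responds to inflammatory signals and rose from 118 and 95.3 FPKM to 260 and 234 FPKM (1.34 ± 0.28, adjusted p = 0.00232, edgeR) but had a difference of 0.43, no longer called, with the correction for GC content. The summed FPKM of the list was higher in 5C-G, at 366 and 338 against 269 and 229 in 5C, with Cebpb the most abundant member.

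Drug metabolism genes held the largest falls. Of 34 genes 18 fell and none rose, with a median of -1.23. Cyp2c29, on chr19:39257849-39319157, stood at 170 and 165 FPKM in 5C and at 4.44 and 4.82 FPKM in 5C-G, against 1.67 and 1.14 FPKM in DMSO (-5.03 ± 0.29, adjusted p = 1.50e-08, edgeR). Cyp2b10, on chr7:25597045-25626049, a classical target of the nuclear receptor CAR, fell from 88.3 and 78 FPKM to 3.58 and 3.64 FPKM, below the 9.9 and 8.7 FPKM of DMSO (-4.39 ± 0.24, adjusted p = 1.26e-08, edgeR). Cyp3a11, a classical target of the nuclear receptor PXR, fell from 173 and 191 FPKM to 42.4 and 41.5 FPKM and stayed far above the 0.708 and 0.542 FPKM of DMSO. Cyp2e1, a pericentral enzyme that also activates CCl4, fell from 75.5 and 73.1 FPKM to 12.2 and 9.26 FPKM. For these 4 genes the 5C-G libraries were close to each other and far from 5C. Cyp4a10 and Cyp4a14, induced by fatty acids through PPAR alpha, fell by 3.04 and 3.02. Por, which passes electrons to all of these enzymes, was at 57.4 and 46.9 FPKM in 5C and at 47.7 and 50.1 FPKM in 5C-G, groups that overlapped. Genes of the Cyp2b, Cyp2c, Cyp3a, Cyp4a and Ugt families have near-identical copies, among which shared reads may have been split or lost.

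**Figure D4:**
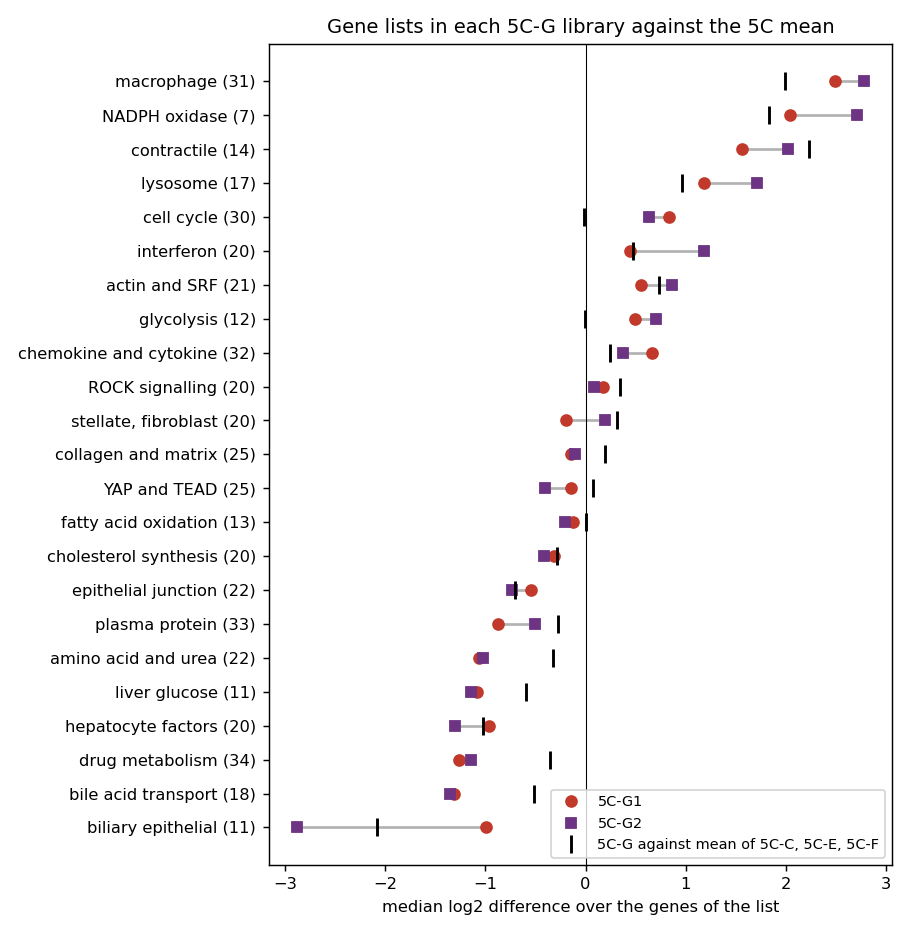
Median log2 difference from the 5C mean over the genes of 23 lists in 5C-G1 (circles) and 5C-G2 (squares), with the number of genes in brackets and a vertical tick for the median of 5C-G against the mean of 5C-C, 5C-E and 5C-F. The libraries lie close for most lists, with medians of -0.99 and -2.88 for the biliary epithelial list.

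Plasma protein genes moved less. Of 33 genes 9 fell and 1 rose, with a median of -0.63. Alb itself had a log2 difference of -0.99 ± 0.19 (adjusted p = 0.00126, edgeR), just under the fold required, and transferrin (Trf), at 4169 and 4302 FPKM in 5C and 2227 and 2328 FPKM in 5C-G, one of -0.76. Apob, the scaffold of very low density lipoprotein, fell from 47.9 and 37.5 FPKM to 9.41 and 9.39 FPKM (-2.04 ± 0.21, adjusted p = 3.61e-06, edgeR), and the fibrinogen chains Fga, Fgb and Fgg fell by 1.10, 1.27 and 1.14. Apoa1, the protein of high density lipoprotein, was the exception and rose from 907 and 880 FPKM to 2009 and 2952 FPKM (1.63 ± 0.22, adjusted p = 6.78e-05, edgeR), or by 0.93 and not called with the correction for GC content. Haptoglobin (Hp), hemopexin (Hpx) and Orm1, proteins of the acute phase, had differences of -0.32, 0.23 and 0.48 and were not called. The summed FPKM of the list was 23232 and 23076 in 5C, 13185 and 15501 in 5C-G and 21660 and 20212 in DMSO.

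In amino acid and urea metabolism 10 of 22 genes fell and 1 rose. Cps1, which starts the urea cycle, fell from 89.7 and 87.3 FPKM to 16.5 and 9.08 FPKM (-2.68 ± 0.32, adjusted p = 2.05e-05, edgeR), while Ass1, of the same cycle, was not called (-0.32). Mat1a, Tdo2, Hpd and Tat, enzymes of methionine, tryptophan and tyrosine metabolism, fell by 2.51, 2.28, 1.70 and 1.20. Of 18 genes of bile acid synthesis and transport 10 fell and none rose, with a median of -1.35 (-1.31 in 5C-G1 and -1.35 in 5C-G2). Slco1b2 and Slc10a1, which take up bile acids from blood, fell by 3.17 and 2.96, and Abcb11 and Abcc2, which export into bile, by 2.58 and 1.64. Slco1b2 stood at 14.3 and 11.9 FPKM in 5C, at 2.11 FPKM in 5C-G1 and at 0.633 FPKM in 5C-G2.

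Of 11 genes of liver glucose handling 6 fell and none rose, where 7.47% of all genes were called higher and 5.64% lower. Slc2a2, the hepatocyte glucose transporter, fell from 17.2 and 14.8 FPKM to 4.84 and 3.08 FPKM (-1.89 ± 0.23, adjusted p = 2.35e-05, edgeR), and Gys2, Pklr, Fbp1 and Ppargc1a fell by 1.67, 1.19, 1.11 and 2.46. Against DMSO, 9 of the 11 lay below both libraries in both 5C-G libraries. General glycolysis genes had a median of 0.63, and 2 of 12 rose, Aldoa by 1.01 and Gapdh by 1.87, neither of them called with 5C-G1 alone. Gapdh is listed at only 2.04 and 2.32 FPKM in 5C, a gene with many near-identical copies, and its level is uncertain. Lipogenesis genes had 3 lower of 12, Scd1, Gpam and Acacb (-1.23, -1.23 and -1.11), and fatty acid oxidation genes 2 lower of 13, Ehhadh and Pdk4, both called with 5C-G2 alone and not with 5C-G1 alone.

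Epithelial and biliary genes were lower, and the biliary list differed widely between the 5C-G libraries in its median, though not in its summed FPKM, 200 and 205 against 228 and 211 in 5C, of which Krt19 made the largest part. Of 22 genes of epithelial junctions 6 fell and none rose. Cdh1, E-cadherin, stood at 32.2 and 24.4 FPKM in 5C, at 9.66 FPKM in 5C-G1 and at 3.17 FPKM in 5C-G2 (-2.05 ± 0.35, adjusted p = 4.62e-04, edgeR). Dsp, Cldn2, Gjb2, Tjp1 and Ocln fell by 2.12, 1.71, 1.56, 1.47 and 2.00, Ocln without a call from 5C-G1 alone, while the keratins of simple epithelia, Krt8 and Krt18, were not called at 0.58 and 0.32. Of 11 markers of biliary epithelium 6 fell and none rose, with medians of -0.99 in 5C-G1 and -2.88 in 5C-G2. Epcam, on chr17:87943407-87958557, stood at 18.4 and 11.9 FPKM in 5C, at 6.1 FPKM in 5C-G1 and at 0.249 FPKM in 5C-G2, while DMSO had 1.63 and 1.39 FPKM. Krt19 and Krt7 did not follow. Krt19 stood at 77.1 and 71.9 FPKM in 5C and at 100 and 123 FPKM in 5C-G, and Krt7 at 28.9 and 30.6 FPKM and at 42.1 and 52.5 FPKM, neither called. Krt19 is also expressed by mesothelium.

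A small set of genes was present in 5C-G1 and nearly absent from 5C-G2. Looking over all genes after their values had been seen, 15 genes with at least 100 counts in 5C-G1 were more than 16-fold lower in 5C-G2, and 1, Srp54, was lower in 5C-G1 to that extent. No gene was that far apart between the 5C libraries, 1 between the DMSO libraries, 6 between those of 5C-C, 1 of 5C-E and 6 of 5C-F. Dmbt1, a mucosal scavenger protein on chr7:130633776-130723357, had 1528 and 1293 counts in 5C, 1073 in 5C-G1 and 0 in 5C-G2, where 0 counts allow up to 3. Mmp7, a matrix protease of injured epithelium on chr9:7692091-7699587, had 5838 and 4359 counts in 5C, 1346 in 5C-G1 and 42 in 5C-G2. Adgrg7, Gabrp, Ehf, Sox17, Lrrc26 and Ap1m2 also had 0 counts in 5C-G2, with 300, 225, 225, 137, 117 and 102 counts in 5C-G1. Ctse, Sftpd, Cldn4, Kcnq1, Wnt7b, Epcam and 1700047I17Rik2 completed the set. Ehf, Cldn4, Epcam and Ap1m2 are genes of epithelial cells. All but 1700047I17Rik2, which had 9 and 8 counts in 5C, had at least 74 counts in each 5C library. For these genes the level in 5C-G depends on which library is read.

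Among tested genes with a mean of at least 10 FPKM in 5C-G, those that differed most toward 5C-G1 were Mmp7, Ms4a4a, Gm10123, Vcl, Wsb1, Gm9824, Adamts1 and Gm12840. Those that differed most toward 5C-G2 were Rpl17-ps10, AC154477.1, mt-Tn, Atp5k, mt-Tp, Rpl39-ps, Gm10443 and Gm6166. The latter include ribosomal protein pseudogenes and mitochondrial transfer RNAs, and reads of the pseudogenes can come from near-identical copies.

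Genes of stellate cells and fibroblasts moved in both directions, although the contractile genes best known from these cells rose. Of 20 genes 3 rose and 4 fell, with a median of 0.01, where 7.47% of all genes were called higher and 5.64% lower. Thy1, a surface protein of portal fibroblasts, rose from 3.03 and 3.86 FPKM to 13.1 and 13.5 FPKM (2.09 ± 0.23, adjusted p = 9.31e-06, edgeR), and Ecm1 and Nes rose by 1.42 and 1.41, Ecm1 without a call from 5C-G1 alone. Rgs5, a pericyte gene, fell from 3.27 and 2.28 FPKM to 0.198 and 0.132 FPKM (-3.94 ± 0.36, adjusted p = 1.07e-06, edgeR), and Pdgfra, Reln and Lrat fell by 2.02, 1.69 and 1.89, Lrat without a call from 5C-G1 alone. Of 25 collagen and matrix genes 4 fell and none rose, with a median of -0.14. With the correction for GC content 3 fell and 2 rose, and the median was 0.19. Col1a1 stood at 448 and 467 FPKM in 5C and at 547 and 727 FPKM in 5C-G, a difference of 0.63 ± 0.18 under the fold required, and Col3a1 at 246 and 240 FPKM and at 287 and 288 FPKM. Col1a2, whose protein assembles with that of Col1a1, was at 30.9 and 35.2 FPKM, then 21.7 and 11.3 FPKM, and was not called. Fn1, Thbs1, Eln and Col8a1 fell by 1.02, 1.32, 1.23 and 1.35. Thbs1 and Col8a1 were not called with 5C-G1 alone, nor Fn1 with 5C-G2 alone, with Thbs1 at 118 FPKM in 5C-G1 and 49.1 FPKM in 5C-G2. Timp1, an inhibitor of matrix proteases, rose from 257 and 257 FPKM to 493 and 721 FPKM (1.39 ± 0.22, adjusted p = 3.27e-04, edgeR) and was called with 5C-G2 alone but not with 5C-G1 alone. Among 14 endothelial genes tested 3 rose and 2 fell, against 1 and 0 with 5C-G1 alone and 2 and 2 with 5C-G2 alone. Stab1, which macrophages also express, rose by 3.46, while the endothelial genes Cdh5 and Pecam1 were at or below 0.0308 FPKM in the 4 libraries.

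Cell cycle genes were higher, at low levels. Of 30 genes 10 rose and none fell, with a median of 0.74 (0.45 by limma on log2(FPKM + 1)). The median was 0.83 in 5C-G1 and 0.63 in 5C-G2, and 20 of the genes lay above both DMSO libraries in both 5C-G libraries. Cdc20, which activates the anaphase-promoting complex, rose from 2.49 and 3.45 FPKM to 11.2 and 10.6 FPKM (2.01 ± 0.27, adjusted p = 6.78e-05, edgeR), and Birc5, Ccnb1, Tpx2 and Plk1, genes of mitosis, rose by 1.62, 1.42, 1.40 and 1.39. Mki67, a marker of dividing cells, stood at 1.14 and 0.699 FPKM in 5C and at 1.89 and 1.96 FPKM in 5C-G (1.20 ± 0.24, adjusted p = 0.00151, edgeR). The replication helicase genes Mcm2, Mcm3, Mcm6 and Mcm7 were not called, with differences of 0.20, 0.47, -0.04 and 0.29.

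To ask which of these differences set 5C-G apart from cells lacking another compound, 5C-G was compared with the mean of 5C-C, 5C-E and 5C-F in the same fit. This contrast shares the 5C-G libraries with the one above. It called 1135 genes (5.71%), 642 higher (3.23%) and 493 lower (2.48%). The 5C-G libraries were both above all 6 libraries of these groups for 1478 genes (7.43%) and below all of them for 905 (4.55%).

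Contractile genes stood apart here as well, with 10 of 14 higher, none lower and a median of 2.23. Acta2 was at 33.2 to 110 FPKM in the 6 libraries, below both 5C libraries, and at 746 and 991 FPKM in 5C-G (log2 fold change 3.99 ± 0.15, adjusted p = 7.71e-11, edgeR). Actg2, at 0.212 to 0.795 FPKM in the other removals, had a log2 fold change of 5.95 ± 0.29, and Cnn1 one of 4.26 ± 0.29. Both were among the largest rises of genes with a mean of at least 10 FPKM in 5C-G, 5C-C, 5C-E or 5C-F, beside Cbr2 and Ccl8. For 10 of the 14 genes both 5C-G libraries were above all 6. Of the 25 YAP and TEAD genes 3 were called, Wwc1 lower at -1.46 and Cyr61 and Ctgf higher at 1.46 and 1.41, with Cyr61 and Ctgf at 84.4 to 153 FPKM and 60.7 to 189 FPKM in the other removals. Of the actin and SRF genes 2 of 21 were called, Cnn2 (1.80) and Fhl2 (1.73), and 11 lay above all 6 libraries.

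Macrophage genes were called higher for 25 of 31 and lower for none, and both 5C-G libraries lay above all 6 libraries for 25. C1qa was at 117 to 510 FPKM in the other removals, between 5C and 5C-G, and Cd5l at 8.26 to 26.2 FPKM. Lysosomal genes were higher for 7 of 17 and NADPH oxidase genes for 6 of 7. Hepatocyte transcription factors were lower for 10 of 20, Hnf4a by 1.06 on the log2 scale, and 10 were below all 6 libraries in both 5C-G libraries. Epithelial junction genes were lower for 6 of 22 and biliary epithelial genes for 7 of 11, with 8 of the 11 below all 6 libraries in both 5C-G libraries. Drug metabolism genes divided, with 7 lower and 2 higher of 34. Cyp2c29 and Cyp2b10 were lower by 3.92 and 3.67, while Cyp3a11 was within the range of the other removals, 21.3 to 98.8 FPKM, and Cyp4a14 was called higher although its 1.53 and 0.894 FPKM lay within the 0 to 35.1 FPKM of the other removals. Alb ranged from 2122 to 18255 FPKM in the other removals, a range that held both 5C-G libraries. Of 30 cell cycle genes 1 was called, lower, and the median was -0.02.

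The change of a gene moved with its GC content, in both libraries and more in 5C-G2. Across 14251 genes, which are not independent replicates, the difference from the 5C mean had a Spearman correlation with GC content of 0.36 in 5C-G1 and 0.44 in 5C-G2, and the difference between the 5C-G libraries one of 0.37, against 0.04 between the 5C libraries. The same correlation between libraries of a group was 0.50 in 5C-E, 0.47 in 5C-F, 0.23 in 5C-C and -0.05 in DMSO, so that a gap following GC content was not particular to 5C-G. In the fifth of genes with the lowest GC content (31 to 43.9%) the median difference was -0.30 in 5C-G1 and -0.62 in 5C-G2. In the fifth with the highest (54.8 to 78.3%) it was 0.37 and 0.66. A fit with an offset for GC content and gene length, in which the correlation was 0.02, called 1096 genes higher (5.51%) and 800 lower (4.02%), and kept 870 of the 1485 higher and 649 of the 1122 lower calls. With this offset 26 of 31 macrophage genes and 9 of 14 contractile genes were called higher, 17 of 34 drug metabolism genes and 12 of 20 hepatocyte transcription factors lower, and 3 of 20 ROCK signalling genes higher. Other genes named above whose call was lost with this offset were Itga5, Timp1, Tagln2, Zyx, Rnd1, Lmod1, Gadd45a, Bst2, Oasl1, Aldoa, Ecm1 and Plk1, all of which had risen, and Fgb, Fn1, Col8a1, Il1rn, Lrat, Pdk4 and Rbms3, which had fallen. Against the other removals the correlation was 0.14. A library effect and an effect of the missing compound that both follow GC content cannot be told apart with these libraries.

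**Figure D5:**
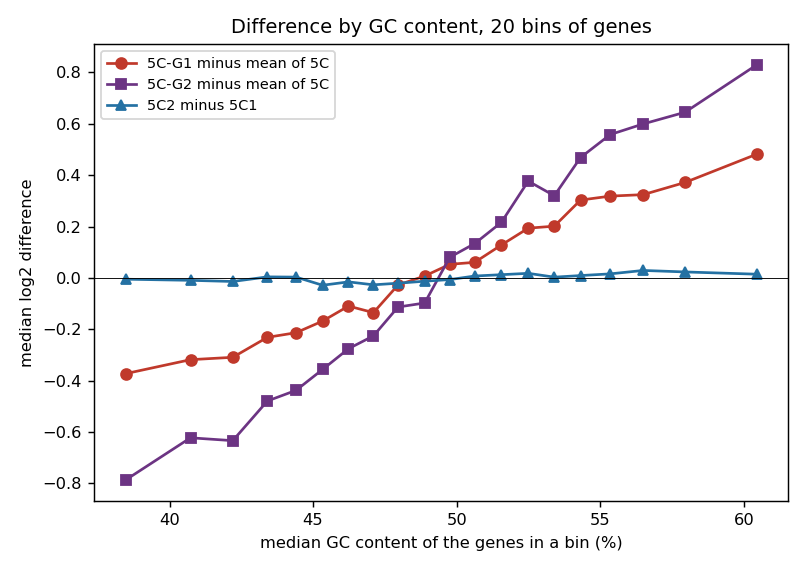
Median log2 difference by the median GC content (%) of the genes in 20 bins of equal size, for 5C-G1 and 5C-G2 against the 5C mean and for 5C2 against 5C1. Both 5C-G lines climb from below to above 0, more steeply in 5C-G2, and the line of the 5C libraries stays near 0.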

How the data were processed

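RNA from dHeps was sequenced by the authors as paired-end reads and assigned to genes of GRCm39. The submitters' processing notes name featureCounts, Subread and DESeq2 without versions, and the annotation release and strand handling were not given in the sources used here, so overlapping and antisense genes are uncertain. The deposited counts were whole numbers, not normalized, and each deposited FPKM matched a count over gene length and column total (within 0.2% for 27140 of 27141 genes). No column of per-sample values was left unused. Column numbers matched a group but no numbered sample.

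Counts were tested with edgeR 4.0.16 in R 4.3.3 (TMM, filterByExpr by group with a minimum count of 10, quasi-likelihood test, 6 residual degrees of freedom, common biological coefficient of variation 0.261), with all 13 libraries in a single fit of group means. The study's methods name DESeq. Standard errors are the log2 fold change over the square root of F. Log2 ratios per library are TMM-scaled CPM with a prior count of 1. Alternatives were limma 3.58.1 on log2(FPKM + 1), DESeq2 1.42.0, an offset for GC content and length from mgcv 1.9.3, other filters, scalings and thresholds, and each library of 5C and 5C-G left out. The test was checked on simulated counts with the same spread in all genes and libraries and no trend with GC content. That check cannot speak to the wider gap between the 5C-G libraries. At this depth 0 counts allow up to 3, which covers counting error only.

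The comparison and the 37 gene lists (686 different genes) were chosen with earlier results of these data known. For each list the called members with the largest change and the most abundant members were named first. Outside the lists, the rule named the 10 largest rises and falls among called protein-coding genes. These needed a mean of at least 10 FPKM in 5C or 5C-G and no overlap between these groups. The rule also named the 8 genes most apart each way between the 5C-G libraries, with a mean of at least 10 FPKM in 5C-G. Against the other removals it named the 6 largest rises and falls among called protein-coding genes. There the mean of at least 10 FPKM was in 5C-G, 5C-C, 5C-E or 5C-F. Genes were located by Ensembl ID in GENCODE vM39 (26905 of 27141 matched). A few list members that count in the totals are not reported here by name.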

Additional observations from a re-analysis of the deposited data

How the results depend on the processing

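No paired analysis was possible because the column numbers match no numbered sample and nothing in the labels ties libraries of different groups. For 5C-G against 5C, limma on log2(FPKM + 1) called 1376 genes, 764 higher and 612 lower. A log2 threshold of 0.5 gave 5035, 2760 and 2275, and no fold threshold 5085, 2792 and 2293. Leaving out each library of 5C or 5C-G in turn gave 1395 to 3945 calls, 830 to 1956 higher and 565 to 1989 lower. The lowest came without 5C-G2 and the highest without 5C-G1. Against the other removals, limma called 518, 311 higher and 207 lower. The threshold of 0.5 gave 2035, 1225 and 810, no fold threshold 2113, 1286 and 827, and an unadjusted p 1741, 969 and 772. Leaving out either 5C-G library, the only libraries left out here, gave 779 to 1398 calls, 479 to 679 higher and 300 to 719 lower. The cause of these changes was not tested, apart from the looser thresholds. Ms4a4a ranged from -0.34 without 5C-G1 to 2.54 without 5C-G2. Some named genes also lost their call when a 5C library was left out. Limk1 was among them, with log2 differences of 1.31 without 5C1 and 1.21 without 5C2. By limma the list medians of hepatocyte transcription factors and of the cell cycle were -0.55 and 0.45. The small medians of the YAP and TEAD list (-0.52 to -0.09), the stellate cell list (-0.30 to 0.19) and the collagen and matrix list (-0.28 to 0.19) also moved over 1.5 times. Those of the stellate cell list and the collagen and matrix list changed sign. DESeq2 (1521 higher, 1285 lower), the GC and length offset, scaling by total counts (1131 and 1472), no filter on low counts (1391 and 1426), a mean of at least 1 CPM (1300 and 1249), a fit of only the groups compared (1449 and 1036) and an unadjusted p (1697 and 1464) gave counts within 1.5 times the main ones for 5C-G against 5C. Many changes under 2-fold passed the adjusted p and stayed uncalled only through the fold threshold.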

Other observations

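Of 23 genes of apoptosis 4 rose and 1 fell, where 7.47% of all genes were called higher and 5.64% lower. The risen genes were the promoters of cell death Bax, Bak1, Bad and Bbc3. Bax stood at 20.2 and 16.2 FPKM in 5C and at 50.9 and 56.3 FPKM in 5C-G (1.70 ± 0.30, adjusted p = 6.50e-04, edgeR, and 0.86 and not called with the correction for GC content), and Bak1 at 8.76 and 7.87 FPKM and at 19.3 and 26.2 FPKM. Xiap, an inhibitor of caspases, fell by 1.14, and was called with 5C-G2 alone but not with 5C-G1 alone. Among 19 genes of the p53 response and inhibitors of cyclin-dependent kinases 4 rose and 1 fell. Cdkn2a, which encodes p16 and p19Arf, rose from 25.4 and 19.9 FPKM to 81.4 and 105 FPKM (2.19 ± 0.31, adjusted p = 8.84e-05, edgeR), and Cdkn2b, beside it on the chromosome, from 44 and 40.1 FPKM to 83 and 79.1 FPKM. Cdkn2a and genes of mitosis such as Cdc20 were thus higher in the same libraries. With the correction for GC content Bbc3, Xiap and Cdkn2b were not called either.

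In the response to unfolded proteins and amino acid shortage 3 of 15 genes rose, Atf3, Ddit3 and Phgdh (1.62, 1.61 and 1.29, Phgdh without a call from 5C-G1 alone), and Slc7a11, the cystine importer, fell by 1.73. Among targets of NRF2, Hmox1 rose from 61.4 and 61.4 FPKM to 153 and 154 FPKM and Ftl1 by 1.46, while Gclc, the first enzyme of glutathione synthesis, fell from 32.1 and 29 FPKM to 10.8 and 7.33 FPKM. Hmox1 and Ftl1 are also abundant in macrophages, which degrade haem, and the part of the macrophage genes was not tested. Of 14 genes that respond to cyclic AMP, 1 fell, Rgs2 (-1.38), with Forskolin present in both groups. Cholesterol synthesis genes had 1 higher (Mvk, 1.41) and 1 lower (Idi1, -1.17) of 20. Over all genes 7.47% were called higher and 5.64% lower, so the cyclic AMP and cholesterol counts lie near or below those shares. Of 8 genes of MHC class II presentation Ctss and H2-DMa rose (2.56 and 1.09) and Cd74 fell (-1.81), although Cd74 and Ctss act in the same pathway. H2-DMa and Idi1 were not called with 5C-G1 alone, and Ftl1, H2-DMa, Idi1, Mvk, Phgdh and Slc7a11 not with the correction for GC content.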
